A study of Saccharomyces cerevisiae with 8 samples.

Results

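Baker's yeast takes up inorganic phosphate through a high-affinity and a low-affinity system and stores the surplus as polyphosphate in the vacuole. Pho84 and Pho89 are the high-affinity carriers of the plasma membrane; Pho84 moves phosphate with protons and Pho89 moves it with sodium ions. Pho87 and Pho90 are the low-affinity carriers there, and Pho91, of the same family, lies in the vacuolar membrane. When phosphate is scarce, the transcription factor Pho4 enters the nucleus and induces the high-affinity carriers together with SPL2, whose small product restrains low-affinity uptake. The VTC (vacuolar transporter chaperone) complex makes polyphosphate: Vtc4 is the catalytic subunit, Vtc1 a small membrane subunit, and Vtc2 and Vtc3 are alternative partners.

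The coding sequences of these 10 genes, of 6697 in the count table, were followed by their gene identifiers: PHO84 (YML123C), PHO89 (YBR296C), PHO87 (YCR037C), PHO90 (YJL198W), PHO91 (YNR013C), SPL2 (YHR136C), VTC1 (YER072W), VTC2 (YFL004W), VTC3 (YPL019C) and VTC4 (YJL012C). They were picked by function, but with their levels and slopes in these same libraries already known, and PHO89 and SPL2 stood among the steepest falls. Their levels and slopes are therefore a description, and no test is given for any of them.

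Ribodepleted total RNA of the haploid laboratory strain BY4741 came from 8 cultures in YPD, a rich medium, each sequenced as 1 library. An isobole is a line of equal growth inhibition, here designed to be 50%. Point 1 held cycloheximide only, which blocks the large ribosomal subunit, points 2 to 6 held both compounds with the balance moving towards LiCl, and point 7 held LiCl only, a cationic and osmotic stress. The last culture held no drug and was inoculated at a lower density. BY4741 carries deletions at URA3, LEU2, MET17 and HIS3: over the 8 libraries URA3 had 0 counts, LEU2 at most 1 and MET17 at most 2, while HIS3, deleted only in part, had 347 to 1266. The libraries held 13693401 to 28042336 coding-sequence (CDS) counts, and the 10 highest genes took 12.7% to 15.1% of them. Levels are CPM, counts scaled to the size of the library, after TMM scaling, a trimmed-mean correction for library composition. With 1 library per condition no difference between 2 conditions has a replicate check, and all intervals and standard errors (SE) between libraries cover counting error only.

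All 10 genes passed the filter on low counts, and the lowest count of any of them in any library was 111. None of their 50-base windows, the length of a read, occurred a second time in the R64 genome, and none of their coding sequences overlapped another counted feature. Counting did not use strand, so antisense transcripts of these genes cannot be told apart from the genes themselves.

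Pho4 binds the sequence CACGTG, which the factor Cbf1 also binds, so the region before each start codon was searched for it. In the 600 bases before the start codon, CACGTG was present in 9 of the 10 genes, against 7.23% of 5999 genes in the RefSeq annotation of build R64. PHO90 was the gene without it. In a shorter window, from 250 bases before to 50 after the start codon, 5 of the 10 held it, against 2.92% of 6001 genes. The related CACGTT, searched on both strands, was within the 600 bases of 3 of the 10 genes (PHO84, PHO89 and VTC3), against 18.8% of all. The longer window was chosen after the shorter one had been read. Shown here with 12 bases either side, and with CACGTG in capitals, are the sites of the genes whose levels moved most (PHO89, SPL2, VTC1), those of PHO84, and that of PHO87 as a low-affinity carrier.
PHO84 upper site: atttaatagttcCACGTGgacgtgttattt
PHO84 lower site: tgttatttccagCACGTGgggcggaaatta
PHO89 site: atgacaatgcagCACGTGggagacaaatag
SPL2 site a: agtatttttgctCACGTGaccgacaagggt
SPL2 site b: aaatgatgtacgCACGTGggcgaaagttca
SPL2 site c: tctctcttttccCACGTGctccgctctctt
SPL2 site d: agtcactgcagcCACGTGcctagatctatt
VTC1 site: aatagatattagCACGTGtctcggagagaa
PHO87 site: ttgatgatttcgCACGTGggaaaagtaatc

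These sequences are from the RefSeq R64 genome, read in the direction of the gene. The PHO84 sites lie at chrXIII:26219-26248 and chrXIII:26197-26226 on the minus strand, and their capitals begin 436 and 414 bases before the start codon. The PHO89 site lies at chrII:798828-798857 on the minus strand, 323 bases before. Those of SPL2, on the minus strand, lie at chrVIII:375444-375473, chrVIII:375230-375259, chrVIII:375173-375202 and chrVIII:375114-375143, at 361, 147, 90 and 31 bases before. The VTC1 site lies at chrV:302637-302666 on the plus strand, 157 bases before, and that of PHO87 at chrIII:197300-197329 on the minus strand, 132 bases before. SPL2 held 4 matches, more than any other of the 10 genes. The annotation used begins each gene at its start codon, so promoter and 5′ untranslated region are not told apart here. A match describes the sequence and does not show that a factor was bound.

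The high-affinity carriers parted along the isobole. PHO89 (chromosome II, 796798 to 798522) was at 91.3 CPM without drug, at 235 in cycloheximide only, at 246, 223, 215, 72.3 and 28.1 at points 2 to 6, and at 7.08 in LiCl only. It thus lay between 215 and 246 CPM over points 1 to 4 and was lower at each later point. At the last 3 steps it was lower by 1.57 (SE 0.05), 1.36 (SE 0.08) and 1.99 (SE 0.12) on the log2 scale. PHO89 was the 1 gene of 6548 (0.0153%) that was at least 2-fold lower at each of these 3 steps, a count chosen after its values were seen. Its range over the 8 libraries was 34.8-fold, from a count of 213 in LiCl only (95% Poisson interval 6.16 to 8.10 CPM).

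PHO84 (chromosome XIII, 24037 to 25800) behaved otherwise. It was at 286 CPM without drug, 572 in cycloheximide only, 834, 712, 591, 626 and 629 at points 2 to 6, and 268 in LiCl only. The 6 libraries with cycloheximide lay between 572 and 834 CPM, all above no drug, and only the library with LiCl and no cycloheximide lay near it. The step from point 6 to LiCl only was -1.23 (SE 0.02) on the log2 scale, and the steps from point 4 to 5 and from 5 to 6, over which PHO89 was lowered, were 0.085 and 0.006. Per 1000 bases, the level of PHO89 relative to that of PHO84 was therefore 0.421 in cycloheximide only, 0.372 at point 4, 0.118 at point 5, 0.0456 at point 6 and 0.0270 in LiCl only, against 0.326 without drug.

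SPL2 (chromosome VIII, 374654 to 375100) was at 34.5 CPM without drug, 95.9 in cycloheximide only, 73.9, 61.0, 40.2, 36.8 and 19.4 at points 2 to 6, and 3.69 in LiCl only. Unlike PHO89 it was lower at every step from the first addition of LiCl onwards, although the step from point 4 to 5, -0.13 (SE 0.08), was within counting error. The largest step was the last, -2.39 (SE 0.16) on the log2 scale. Its range was 26.0-fold, from a count of 111 in LiCl only (95% Poisson interval 3.04 to 4.44 CPM).

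**Figure D1:**
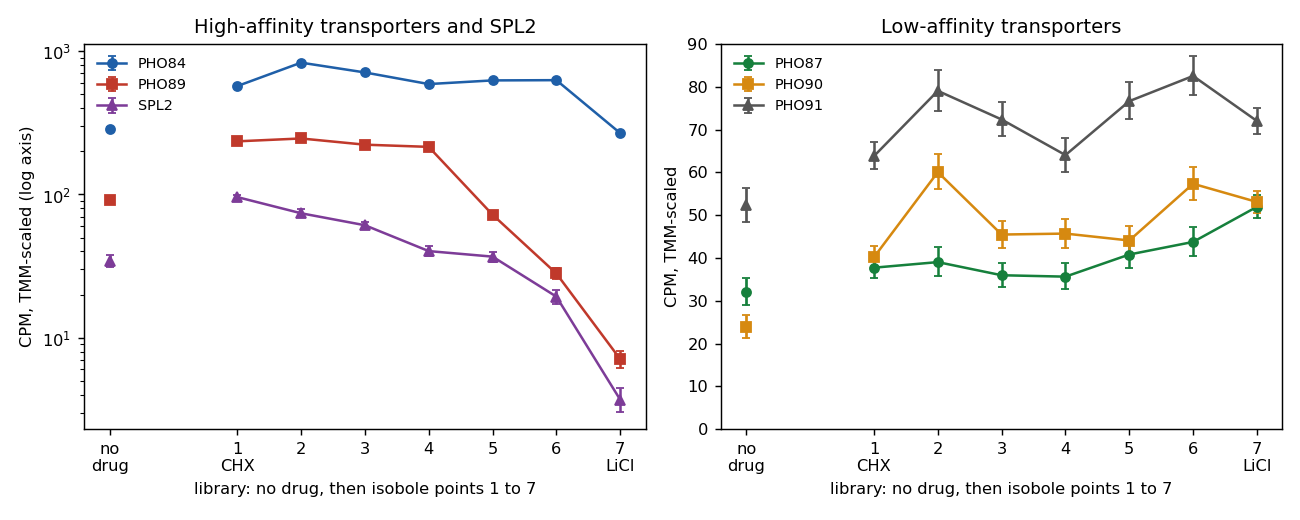
CPM after TMM scaling (y axis; log axis on the left, linear on the right) in the library without drug and at isobole points 1 (cycloheximide, CHX) to 7 (LiCl); points are single libraries and bars are 95% Poisson intervals. PHO84 lies between 572 and 834 CPM at points 1 to 6, PHO89 drops from 215 at point 4 to 7.08 at point 7, and PHO87, PHO90 and PHO91 are above their levels without drug at all 7 points. For PHO87 the difference at points 3 and 4 is within counting error.

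The low-affinity carriers ranged over 1.58-fold to 2.51-fold in the 8 libraries, against 3.11-fold for PHO84 and 34.8-fold for PHO89. PHO87 (chromosome III, 194414 to 197185) was at 32.0 CPM without drug, 37.7 in cycloheximide only, 39.1, 36.0, 35.7, 40.8 and 43.8 at points 2 to 6, and 52.0 in LiCl only, its highest library. PHO90 (chromosome X, 60844 to 63489) was at 23.9 CPM without drug, 40.2 in cycloheximide only, 60.1, 45.5, 45.7, 44.1 and 57.3 at points 2 to 6, and 53.1 in LiCl only. PHO91 (chromosome XIV, 649028 to 651712), the vacuolar carrier, was at 52.3 CPM without drug, 63.8 in cycloheximide only, 79.0, 72.4, 64.05, 76.6 and 82.5 at points 2 to 6, and 72.0 in LiCl only. Each of the 3 was lowest without drug and higher in all 7 isobole libraries. For PHO87 the difference from no drug was within counting error at points 3 and 4, at 0.17 (SE 0.09) and 0.15 (SE 0.09) on the log2 scale. Per 1000 bases, PHO90 was above PHO87 at points 1 to 6, with a ratio of PHO87 to PHO90 between 0.621 and 0.896. In LiCl only the ratio was 0.934 (95% counting interval 0.871 to 1.00), so there the levels did not differ beyond counting error, and without drug the order was the other way round, 1.28 (1.10 to 1.48).

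High- and low-affinity transport were compared within each library as the summed counts per 1000 bases of PHO84 and PHO89 over those of PHO87 and PHO90, a ratio in which the scaling of libraries cancels. Without drug it was 10.4 (95% counting interval 9.65 to 11.3). It was 16.0 in cycloheximide only (15.2 to 16.7), 16.7, 17.7, 15.2, 12.6 and 9.95 at points 2 to 6, and 4.02 in LiCl only (3.86 to 4.19). The ratio was thus above that without drug at points 1 to 5, within its counting error at point 6, and lowest in LiCl only. The log2 difference was 0.61 (SE 0.07) between cycloheximide only and no drug, -1.38 (SE 0.07) between LiCl only and no drug, and -1.99 (SE 0.05) between the 2 ends of the isobole, a 3.97-fold difference. High-affinity transcripts stayed the more abundant per base in all 8 libraries. PHO89 contributed 24.2% of the high-affinity counts in the untreated culture, 29.1% at point 1 and 2.57% at point 7. With PHO84 as the only high-affinity gene, the ratio was 7.87 in the culture with no drug, 11.2 with cycloheximide and 3.92 with LiCl, in the same order as with both. At point 6 that ratio was 9.52 (9.02 to 10.04), above no drug (7.26 to 8.53), so the return to the level without drug at point 6 was seen only with PHO89 in the sum.

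**Figure D2:**
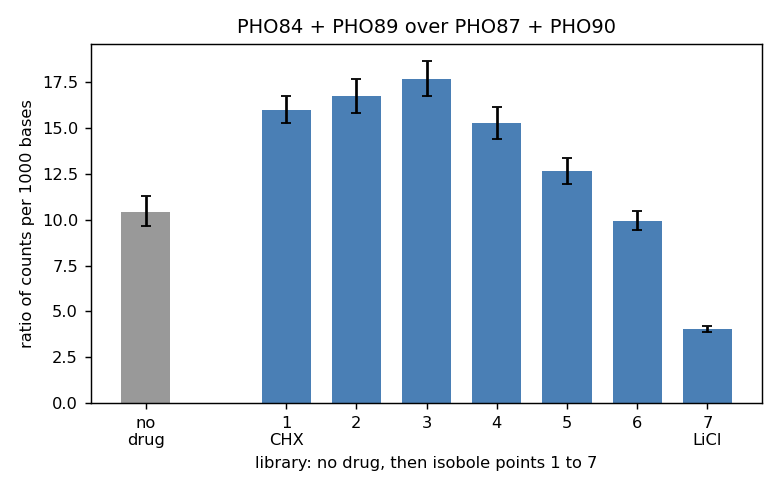
Ratio of summed counts per 1000 bases of PHO84 and PHO89 to those of PHO87 and PHO90 (y axis, from 0) in the library without drug (grey) and at isobole points 1 to 7 (blue); each bar is 1 library, with its 95% counting interval. The ratio is 16.0 at point 1, peaks at 17.7 at point 3 and is 4.02 at point 7, against 10.4 without drug.

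SPL2 was also set against the carriers within each library. Per 1000 bases, its level relative to PHO87 and PHO90 together was 7.45 in cycloheximide only, 3.74 without drug, 1.16 at point 6 and 0.213 in LiCl only. Relative to PHO84 it was 0.662, 0.475, 0.121 and 0.0543 in the same libraries, so SPL2 was lowered further than PHO84 towards LiCl.

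The VTC genes also differed among themselves. VTC4 (chromosome X, 411234 to 413399), the polymerase, was at 264 CPM without drug, 436 in cycloheximide only, 482, 459, 390.3, 393 and 388 at points 2 to 6, and 208 in LiCl only. VTC3 (chromosome XVI, 514511 to 517018) was at 285 CPM without drug, 420.2 in cycloheximide only, 424, 423, 353, 381 and 386 at points 2 to 6, and 188 in LiCl only. With TMM scaling both were above no drug at points 1 to 6 and below it in LiCl only, the pattern of PHO84. With scaling by total counts, the log2 difference between LiCl only and no drug was 0.011 for VTC4, 0.26 for PHO84 and -0.24 for VTC3. The place of VTC4 and PHO84 below no drug thus depended on the scaling. VTC2 (chromosome VI, 131810 to 134296) was at 166 CPM without drug, 201 in cycloheximide only, 196, 199.8, 184, 203 and 179 at points 2 to 6, and 112 in LiCl only. VTC2 too was above no drug at points 1 to 6 and below it in LiCl only. The last step, from point 6 to LiCl only, was -0.90 (SE 0.03) for VTC4, -1.04 (SE 0.03) for VTC3 and -0.67 (SE 0.04) for VTC2 on the log2 scale.

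VTC1 (chromosome V, 302806 to 303195) was at 132 CPM without drug, 191 in cycloheximide only, 158, 118, 107, 109.8 and 103 at points 2 to 6, and 51.7 in LiCl only. It was lower already at points 2 and 3, where VTC2 and VTC3 had hardly moved. From point 3 on it was below the level without drug with TMM scaling. With scaling by total counts, VTC1 was at 118, 110, 105 and 110 CPM at points 3 to 6, against 110 without drug. LiCl only, at 55.4, was then still well below it. Per 1000 bases the ratio of VTC1 to VTC4 was 2.77 without drug (95% counting interval 2.61 to 2.94), 2.43 in cycloheximide only (2.35 to 2.51) and 1.82 at point 2, and lay between 1.38 and 1.55 from point 3 to LiCl only. The ratio of VTC3 to VTC4 lay between 0.760 and 0.859 on the isobole, against 0.933 without drug. That of VTC2 to VTC3 lay between 0.465 and 0.600 in all 8 libraries, so VTC3 was the more abundant of the alternative partners throughout. In LiCl only and without drug the ratio of VTC2 to VTC3 was 0.600 (0.575 to 0.626) and 0.586 (0.556 to 0.618), which did not differ beyond counting error.

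**Figure D3:**
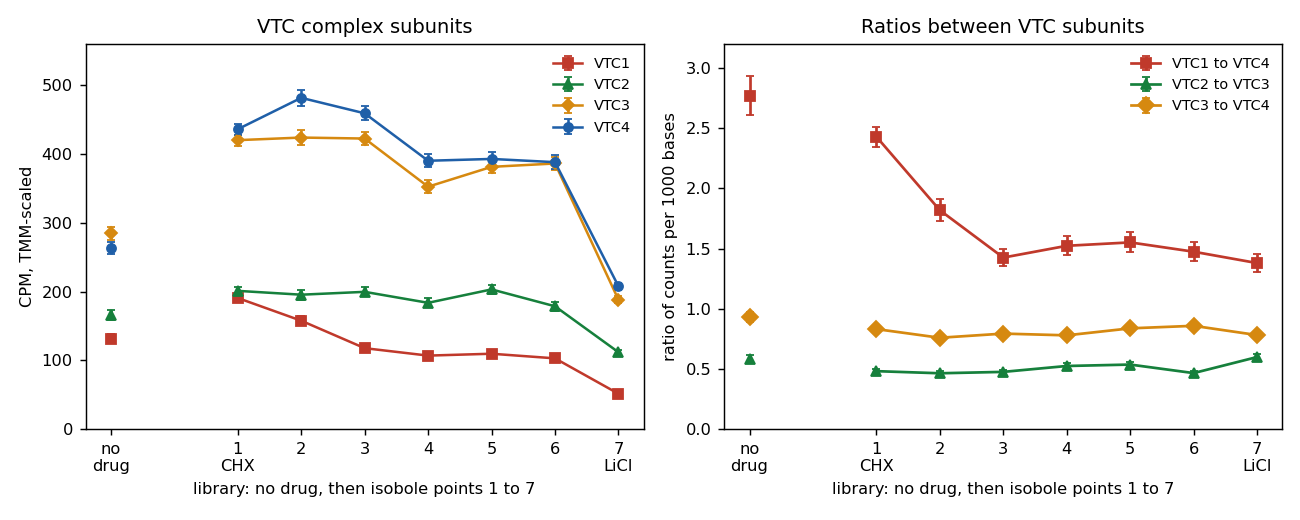
Left, CPM after TMM scaling of the 4 VTC genes; right, ratios of their counts per 1000 bases within a library. The x axis gives the library without drug and isobole points 1 to 7, points are single libraries and bars are 95% Poisson or counting intervals. VTC2, VTC3 and VTC4 drop mainly between points 6 and 7, whereas VTC1 relative to VTC4 drops from 2.43 at point 1 to 1.43 at point 3.

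Ranked per 1000 bases, PHO84 and VTC1 held the top places in all 8 libraries. VTC1 led without drug, at 337 CPM per 1000 bases against 162 for PHO84, and in cycloheximide only, at 489 against 324, and PHO84 led in the other 6. At the other end, PHO90 was last without drug, at 9.04, and PHO87 at points 1 to 6, at 12.9 to 15.8 CPM per 1000 bases. In LiCl only PHO89 was last, at 4.11, with SPL2 next at 8.26, below all 3 low-affinity carriers, whose levels lay between 18.7 and 26.8. Together the 10 genes took 0.259% of the CDS counts at point 2, their highest share, and 0.109% in LiCl only, against 0.115% without drug.

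Set against no drug, all 10 genes were higher in cycloheximide only, with a median log2 difference of 0.64, against 0.01 over all genes. Of the 10 genes, 2 were at least 2-fold higher (PHO89 and SPL2), while PHO84 missed that limit narrowly, at 1.00 (SE 0.03); among all genes 5.76% were at least 2-fold higher. None of the 10 was at least 2-fold lower, where 2.78% of all genes were. In LiCl only against no drug, 3 were at least 2-fold lower (PHO89 at -3.69, SE 0.11; SPL2 at -3.22, SE 0.15; VTC1 at -1.35, SE 0.05), where 7.15% of all genes were, and 1 was at least 2-fold higher (PHO90 at 1.15, SE 0.09), where 11.6% were. The median of the 10 was -0.45, against -0.01 over all genes. Between LiCl only and cycloheximide only, 6 of the 10 were at least 2-fold lower, where 7.18% of all genes were, and 0 at least 2-fold higher, where 6.34% were. The 6 were PHO89 (-5.05, SE 0.10), SPL2 (-4.70, SE 0.14), VTC1 (-1.88, SE 0.04), VTC3 (-1.16, SE 0.02), PHO84 (-1.09, SE 0.02) and VTC4 (-1.07, SE 0.02). These 3 comparisons share libraries, and since the genes were chosen with these values known, nothing is read from the counts. The library without drug had a TMM factor of 0.839, against 0.958 to 1.07 on the isobole. With scaling by total counts the median of all genes in LiCl only against no drug becomes 0.35, and the difference of PHO84, -0.09 (SE 0.03) with TMM, becomes 0.26. There 2 of the 10 genes were then at least 2-fold higher, with PHO87 added at 1.05, and 2 at least 2-fold lower, with VTC1 left out at -0.99. Among all 6548 genes compared there, 1326 were then at least 2-fold higher and 214 at least 2-fold lower. In cycloheximide only against no drug 5 of the 10 were then at least 2-fold higher, with PHO84 (1.33), PHO90 (1.08) and VTC4 (1.06) added. Among all 6547 genes compared there, 760 were then at least 2-fold higher.

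Slopes along the 7 isobole libraries were fitted for all genes with the quasi-likelihood test of edgeR. The slopes of the 10 genes are given as a description, with no call, since the genes were chosen with these slopes known. On the log2 scale per isobole point, the slopes were -0.80 (SE 0.17) for PHO89, -0.60 (SE 0.10) for SPL2 and -0.24 (SE 0.04) for VTC1. They lay between -0.14 and -0.09 for PHO84, VTC4, VTC3 and VTC2. For PHO91, PHO90 and PHO87 they were 0.027 (SE 0.026), 0.035 (SE 0.035) and 0.070 (SE 0.024). PHO89 had the steepest fall of all 6498 genes, rank 1, and SPL2 had rank 3. The median was -0.13 for the 10 genes and 0.00 for all genes. Without the LiCl only library, the slope was -0.56 for PHO89, -0.43 for SPL2, -0.18 for VTC1, -0.06 for VTC4 and -0.03 for PHO84. In that fit it was -0.037 (SE 0.028) for VTC3, -0.021 (SE 0.025) for VTC2 and 0.037 (SE 0.027) for PHO87. For PHO90 and PHO91 it was 0.034 (SE 0.045) and 0.045 (SE 0.032). Without point 1, the slope was -1.03 for PHO89, -0.23 for PHO84 and 7.6e-05 for PHO90.

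**Figure D4:**
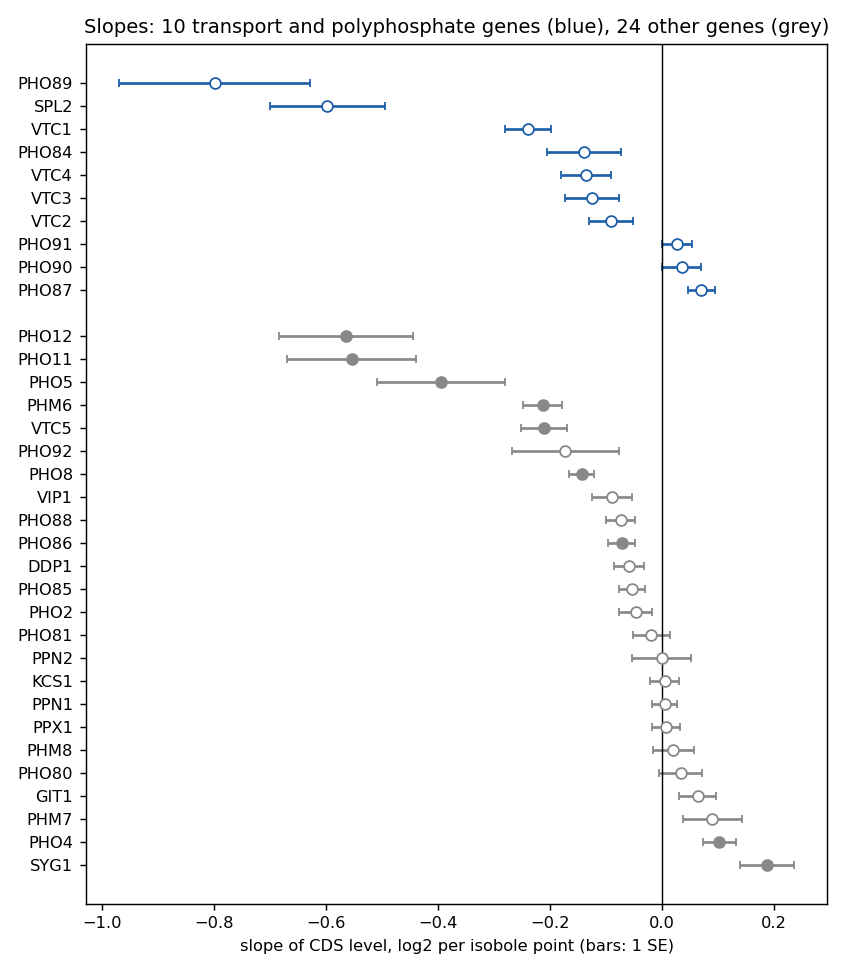
Slope of the CDS level on the log2 scale per isobole point (x axis) over 7 libraries, with bars of 1 SE, for the 10 genes (blue, open, no test) and 24 other genes of phosphate metabolism (grey, filled where the edgeR adjusted p was under 0.05). PHO89 and SPL2 lie lowest, at -0.80 and -0.60, and PHO11 and PHO12 lead the other genes that fell. The 3 low-affinity genes lie above 0, PHO90 and PHO91 by only about 1 SE.

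Among 24 other genes of phosphate metabolism, a list written with earlier results for these libraries known, 7 fell and 2 rose in the same fit, or 29.2% and 8.33%, against 15.1% and 16.5% of all 6498 genes tested. The median slope of the 24 was -0.05. The genes that fell included 5 of the 8 listed as phosphatases or other Pho4 targets. The others of the 8, PHM7, PHM8 and GIT1, did not pass. Each was higher in LiCl only than without drug, by 1.75 (SE 0.16), 0.35 (SE 0.06) and 0.74 (SE 0.27) on the log2 scale. The secreted acid phosphatases PHO11, PHO12 and PHO5 had slopes of -0.55 (SE 0.12, edgeR adjusted p = 0.00747), -0.56 (SE 0.12, edgeR adjusted p = 0.00795) and -0.39 (SE 0.11, edgeR adjusted p = 0.0277). Of the 50-base windows of PHO11 and PHO12, 88.3% and 87.2% occur elsewhere in the genome, so their counts are largely shared, and 12.3% of those of PHO5 do. PHO11 was at 191 CPM in the untreated culture, 287, 326, 278, 191, 139 and 89.3 at points 1 to 6, and 17.8 at point 7. PHO5 was at 103 CPM in the untreated culture, 139 at point 1, 244 at points 2 and 3, 159, 146 and 71.7 at points 4 to 6, and 30.4 at point 7, so it was higher at points 2 to 5 than at point 1. The vacuolar alkaline phosphatase PHO8 had a slope of -0.14 (edgeR adjusted p = 0.00203), and PHM6, with 2.59 to 6.57 CPM, one of -0.21 (edgeR adjusted p = 0.00288). PHO8 was highest without drug, at 154 CPM, and lower in all 7 isobole libraries.

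VTC5, which encodes a further subunit of the polyphosphate polymerase, fell by 0.21 per point (edgeR adjusted p = 0.00579), from 119 CPM at point 1 to 43.3 at point 7, against 122 in the untreated culture. PHO86, needed for export of Pho84 from the endoplasmic reticulum, fell by 0.07 per point (edgeR adjusted p = 0.0438). The risers were SYG1, whose product shares the SPX domain that senses phosphate status, by 0.19 (edgeR adjusted p = 0.0172), and PHO4 itself, by 0.10 (edgeR adjusted p = 0.0234). SYG1 was at 67.2 CPM in the untreated culture, 83.9 at point 1 and 189 at point 7, and 353 of its bases overlap another counted feature. PHO4 was at 18.7, 13.8 and 20.3 CPM in the same order. Without the LiCl only library the slopes of PHO5 (-0.23), PHO86 (-0.04), PHO4 (0.09) and SYG1 (0.16) did not pass; that of PHO5 also failed without points 2 (-0.38) or 6 (-0.38), that of PHO4 without point 6 (0.09), and that of PHO86 without points 1 (-0.09), 2 (-0.07), 3 (-0.07) or 5 (-0.08) and with scaling by total counts (-0.07).

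The remaining 15 genes did not pass, among them the signalling genes PHO81, PHO80, PHO85, PHO2, KCS1, VIP1 and PHO92, and the polyphosphatase genes PPX1, PPN1, PPN2 and DDP1. Their slopes ranged from -0.17 (PHO92) to 0.09 (PHM7). Within 600 bases before the start codon, CACGTG was present in 6 of the 7 genes that fell, in 1 of the 2 that rose (SYG1) and in 4 of the 15 others (GIT1, PHO81, VIP1 and DDP1), a description chosen after the slopes were known. Among all 5999 genes 7.23% held it. The 6 include PHO11 and PHO12, whose counts are largely shared, so these are not separate observations.

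The genes most like the high-affinity pattern were sought by Pearson's r of log2(CPM + 0.5) with the mean profile of PHO84 and PHO89 over 8 libraries, among 5655 genes with a mean of at least 5 CPM. Outside the 10 genes the highest were TMA108 (0.997), CAR2 (0.987), YLR437C-A (0.985), SVS1 (0.981) and MIX17 (0.979). TMA108, encoding a ribosome-associated protein, lay between 46.1 and 93.9 CPM, and CAR2, the ornithine transaminase of arginine breakdown, between 27.0 and 115. The coding sequences of YLR437C-A and CAR2 overlap on opposite strands, so their counts cannot be told apart. Of the genes that make up the profile, PHO89 had an r of 0.979 with it and PHO84 one of 0.783, so the profile was nearer to that of PHO89. For the rest of the 10 genes, r was 0.957 for SPL2, 0.837 to 0.894 for the VTC genes, -0.03 for PHO91, -0.02 for PHO90 and -0.70 for PHO87. These values describe likeness of shape over 8 libraries that all genes share.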

How the data were processed

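Total RNA was rRNA-depleted and sequenced as single-end 50-base reads. Per the labels and file headers, the authors aligned reads to build R64 with TopHat and deposited raw counts per CDS from featureCounts 1.6.2, counting multi-mapping reads at every location, reads over several features for each, and without a strand setting. Intron counts were not used.

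Levels were computed as CPM with TMM factors over genes passing filterByExpr (6548 genes), and single-library intervals as exact Poisson intervals. Slopes used edgeR 4.0.16 (glmQLFit, glmQLFTest, TMM, filterByExpr, Benjamini-Hochberg over 6498 genes) with the isobole point as a numeric term; an SE is the slope over the square root of F. DESeq2 1.42.0, matplotlib 3.10.9, R 4.3.3, pandas 2.3.3, scipy 1.17.1, Python 3.11.15 and numpy 2.4.6 served otherwise. The slope fit was tested on simulated data. The genes and lists were chosen with earlier results of these data known, so calls on the 10 genes are not reported. All 10 genes and all 24 other listed phosphate genes could be named, the called ones first, and beside them the 5 genes most like the high-affinity profile. Scaling, filter, test and left-out libraries were varied.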

Additional observations from a re-analysis of the deposited data

How the results depend on the processing

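No paired analysis was possible because each condition had 1 library. Over the fits that left out 1 isobole library, the genes called rising numbered 351 to 1122 and falling 486 to 1100, against 1069 and 982 with all 7, and the lowest values came without LiCl only. In these fits 5 to 8 of the 24 other phosphate genes were called falling and 0 to 2 rising. The other scalings, the absence of a filter and DESeq2 kept both gene-wide counts within 1.5 times. With scaling by total counts, 1326 genes were at least 2-fold higher and 214 lower in LiCl only against no drug, and 760 higher and 56 lower in cycloheximide only, against 757, 468, 377 and 182 with TMM. The differences of PHO84 and VTC4 in LiCl only against no drug then reversed, to 0.26 and 0.011 on the log2 scale, from -0.09 and -0.34. Adding PHO91 to the low-affinity set moved the log2 difference of the high- to low-affinity ratio to -1.17 for LiCl only against no drug and to -1.88 against cycloheximide only, and PHO84 alone as the high-affinity gene moved it to -1.01 and -1.52. Of the 15 other phosphate genes not called, 6 changed sign in some setting and 2 were called in some. The longer window before the start codon, chosen after seeing the data, raised the genes with CACGTG from 5 to 9. The lowest count behind any level of the 10 genes was 111, for SPL2 in LiCl only, and no condition has a replicate.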
